A study of Gallus gallus with 9 samples.

Results

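The 100 steadiest genes of intermediate abundance in chicken liver were examined across 3 ages, embryonic day 13, 5 weeks and 42 weeks. They were chosen from the 13949 genes of the deposited table of protein-coding transcripts. A gene was eligible with at least 10 FPKM in all 9 libraries and a mean under 100 FPKM at one age or more, which 2183 genes met. FPKM counts sequenced fragments relative to transcript length in kilobases and to the mapped fragments of the library. Eligible genes were ranked by their range, the largest minus the smallest log2(FPKM + 1) over the 9 libraries, and the 100 with the smallest range were taken. Because all 9 values chose them, the small differences reported for these genes are a description of what the rule selected, and no test was run on them.

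Total RNA of whole liver was sequenced from 3 biological replicates per age, which the labels place in an embryonic, a rapid growth and an adult and aged stage. No treatment, genotype, breed or sex is stated in the labels, and pooling of birds is not mentioned. Whether the replicates were separate birds is not stated beyond the word biological, and age could not be told apart from any batch. The values are FPKM without read counts, so the depth behind each value is unknown and error was taken from the spread between libraries. Genes carry Ensembl identifiers that the files do not pair with names. As 0 of the 13949 identifiers matched the symbol table, no gene is given a name or a role, and markers of liver and other cell types were not checked.

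Genes whose transcripts stay at an even level across cell types and ages are often called housekeeping genes, and they are thought of as serving tasks that every cell needs, such as making proteins, processing RNA and moving vesicles. Such genes are commonly used as references in quantitative PCR. FPKM is a relative scale. A transcript's value depends on its own abundance and on how much of the library other transcripts take up, so an even FPKM is not the same as an even number of molecules per cell. In a bulk sample, fewer cells of a type and less RNA per cell cannot be told apart.

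The median level of the library pool was lower after day 13, against which the even level of the 100 genes is set. Among the 11512 genes that reached 1 FPKM in 3 or more libraries, the median log2 difference was -0.46 for 5 weeks against day 13, -0.17 for 42 weeks against 5 weeks and -0.61 for 42 weeks against day 13. The median log2 value of these genes was 3.30, 3.17 and 3.21 in the day 13 libraries. It was 2.68, 2.87 and 2.70 at 5 weeks and 2.41, 2.59 and 2.86 at 42 weeks, so the 2 later ages overlapped. At day 13 the listed genes summed to 543040 ± 7183 FPKM, at 5 weeks to 527080 ± 13084 and at 42 weeks to 433980 ± 34518 (SD over 3 libraries). Among eligible genes that were not chosen, the median absolute difference between the first and second 42-week libraries was 0.21 log2 units, while the third differed from them by 0.46 and 0.35. For the 100 chosen genes these values were 0.12, 0.18 and 0.20.

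The steadiest gene, ENSGALG00000008211, had 25.2, 25.9 and 26.7 FPKM in the day 13 libraries, 29.0, 29.2 and 25.9 FPKM at 5 weeks, and 27.6, 25.7 and 29.8 FPKM at 42 weeks. The 3 ages overlapped, and the range was 0.23 log2 units, with the highest library at 1.18 times the lowest. ENSGALG00000002937 followed, with 16.1, 13.5 and 14.9 FPKM at day 13, 14.5, 16.3 and 14.2 FPKM at 5 weeks, and 15.4, 16.5 and 15.0 FPKM at 42 weeks. Its age means were 14.8 ± 1.296, 15.0 ± 1.11 and 15.6 ± 0.78 FPKM (SD, n = 3 each), all within the SD of the day 13 libraries.

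ENSGALG00000017010 had 26.4, 22.6 and 25.4 FPKM at day 13, 23.6, 24.1 and 27.3 FPKM at 5 weeks, and 25.4, 23.3 and 27.6 FPKM at 42 weeks. Its lowest value came from day 13 and its highest from 42 weeks, and all 3 ages overlapped. ENSGALG00000012030, also the member with the lowest mean over 9 libraries (11.5 FPKM), had 12.8, 11.1 and 11.3 FPKM at day 13, 10.7, 13.3 and 11.5 FPKM at 5 weeks, and 11.1, 10.7 and 11.5 FPKM at 42 weeks. Both its highest and its lowest value came from 5-week libraries.

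ENSGALG00000035630 had 28.8, 23.4 and 25.4 FPKM at day 13, 22.3, 22.4 and 22.6 FPKM at 5 weeks, and 23.9, 26.9 and 23.2 FPKM at 42 weeks. Its 5-week libraries all lay below those of both other ages and differed from each other by an SD of 0.17 FPKM. At the upper end of abundance, ENSGALG00000011031 had 91.9, 68.4 and 81.3 FPKM at day 13, 77.7, 92.8 and 101 FPKM at 5 weeks, and 82.5, 82.0 and 87.4 FPKM at 42 weeks. The ages overlapped, and its range of 0.55 became 0.37 without the second day 13 library.

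**Figure D1:**
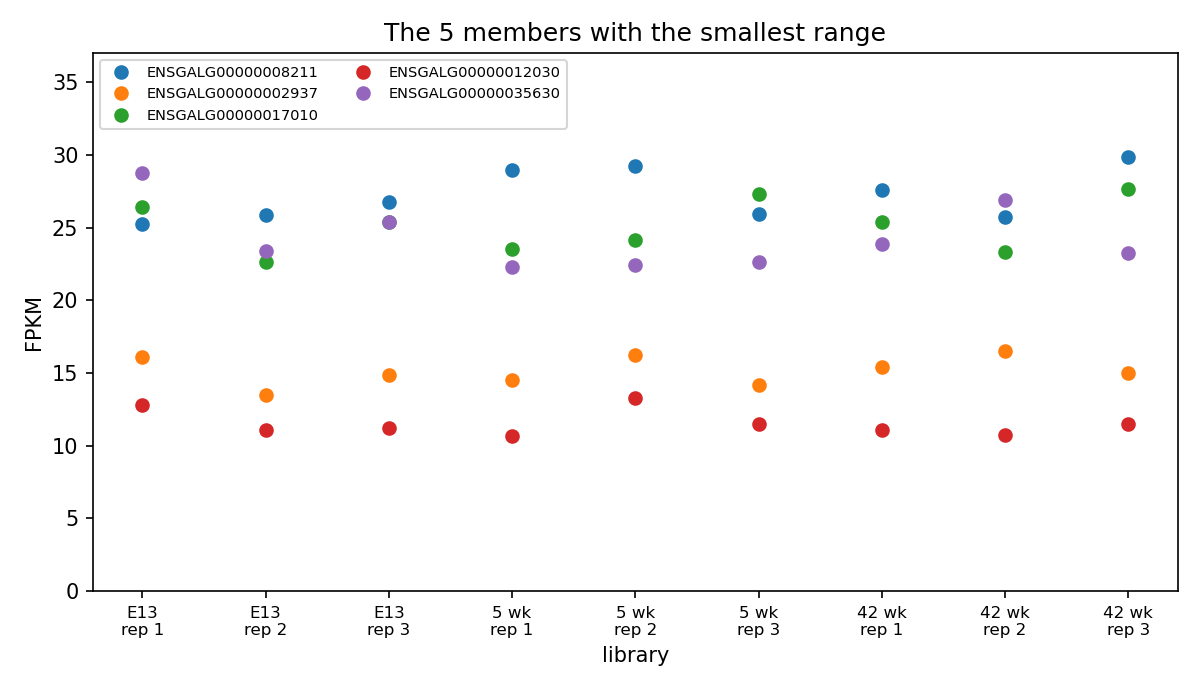
FPKM of the 5 members with the smallest range in each of the 9 libraries, with day 13 (E13) at the left, then 5 and 42 weeks; each point is 1 library. The most variable of the 5, ENSGALG00000035630, lies between 22.3 and 28.8 FPKM.

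Across the 100 members the range ran from 0.23 to 0.61 log2 units with a median of 0.51, and the highest library held 1.18 to 1.57 times the FPKM of the lowest. The other 2083 eligible genes had a median range of 1.40. The limit fell in a dense part of the ranking. The last member, ENSGALG00000035841, had a range of 0.608, and the first gene outside, ENSGALG00000004655, had 0.611. The coefficient of variation of FPKM over 9 libraries had a median of 12.6% among members and 34.9% among the other eligible genes.

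The members lay toward the lower end of the eligible abundance. Their mean FPKM over 9 libraries was 11.5 to 85.0 with a median of 21.3, against a median of 32.7 over all eligible genes. Of the 380 eligible genes with a mean of 10 to 20 FPKM, 49 were members (12.9%). At 20 to 50 FPKM the number was 47 of 1184 (3.97%), at 50 to 100 FPKM 4 of 427 (0.937%), and at 100 FPKM or more 0 of 192. The median range of eligible genes was 0.92, 1.37, 1.67 and 2.46 log2 units in these 4 classes. The eligibility rule bears on these shares and medians at both ends. A gene averaging 10 to 20 FPKM with no library under 10 FPKM has less room for a wide range than one averaging more. How far this accounts for the shares was not tested. A gene averaging 100 FPKM or more was eligible only when the mean of 1 age or more was below that level. The 265 genes at or over 100 FPKM at all 3 ages had been set aside beforehand. Of these abundant genes, 7 had a range within the members' limit. Neither is therefore read as a property of abundance. FPKM was also put back on a log2 scale with an offset of 0.1 FPKM in place of 1, and the same eligible genes were ranked again. This left 96 of the 100 members in the list. Removing the upper limit left 93, as the 7 abundant genes within the members' limit then entered the list. The offset used to read the deposited values was not varied. A minimum of 5 FPKM, which lets further genes in, left 59. A minimum of 20 FPKM only removes genes, so the 39 it left were the members at 20 FPKM or more in every library.

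**Figure D2:**
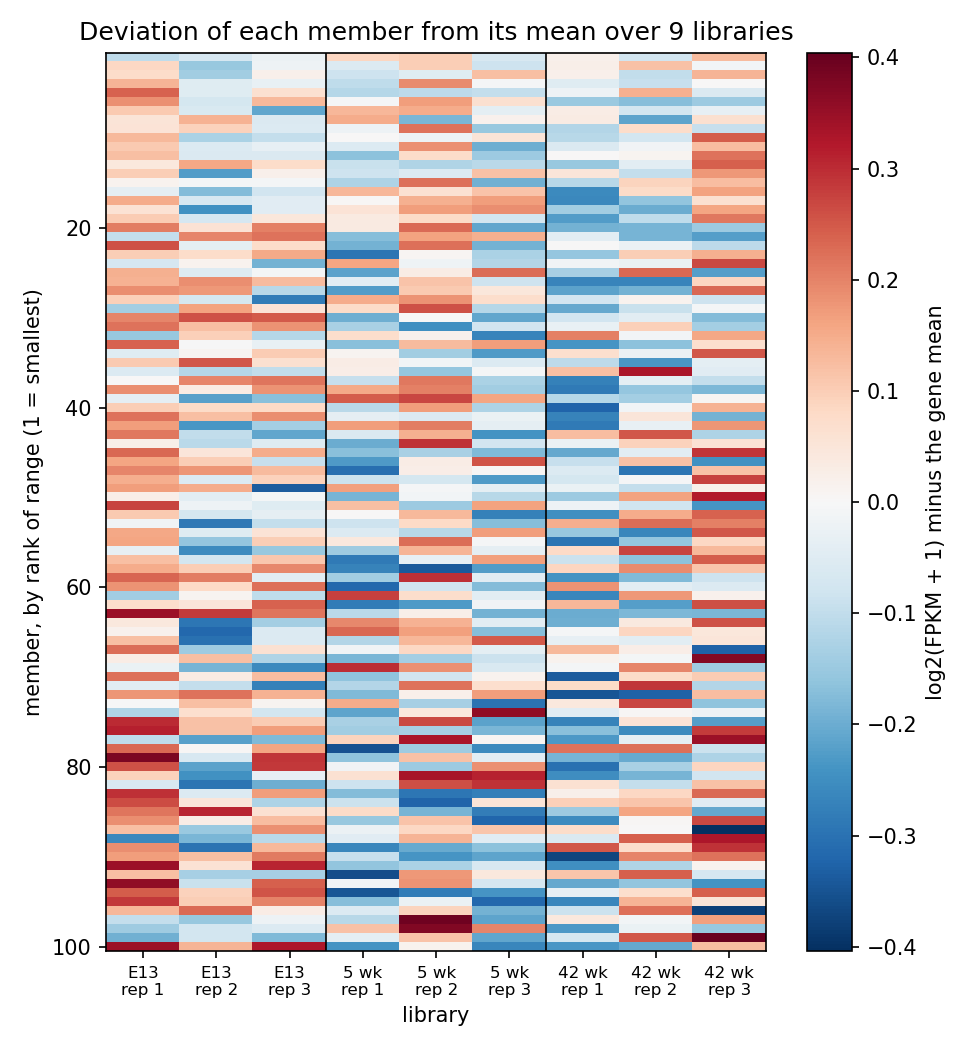
Deviation of each of the 100 members from its own mean over 9 libraries (log2 units, red above and blue below the mean), ordered by range from the smallest at the top; columns are libraries, grouped by age. Of the 100 members, 22 were highest in day 13 replicate 1 and 26 in 42-week replicate 3, and 26 were lowest in 42-week replicate 1. Among the other eligible genes the shares were 35.3%, 10.2% and 44.6% in the same order.

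In the members, chosen for a small range over these same libraries, the difference between ages was only a little larger than that between replicates. For any 2 libraries of the same age, the median absolute difference over the members was 0.10 to 0.20 log2 units, and for 2 libraries of different ages 0.15 to 0.23. The other eligible genes gave 0.14 to 0.46 within an age and 0.41 to 1.02 between ages. Within an age, the SD of a member had a median of 0.10, 0.14 and 0.16 at day 13, 5 weeks and 42 weeks, against 0.14, 0.16 and 0.28 for the other eligible genes. Of the variation of a member over 9 libraries, a median of 38.7% lay between the age means, while for the other eligible genes this share was 83.5%. The range of the age means exceeded the pooled SD within ages in 72 members, against 96.4% of the other eligible genes. Means of 3 libraries also differ through the spread between replicates, so neither value of the members is read as an effect of age.

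The highest library was a day 13 library for 36 members, a 5-week library for 28 and a 42-week library for 36. Among the other eligible genes these shares were 60.7%, 22.9% and 16.4%. The lowest was a day 13 library for 21, a 5-week library for 39 and a 42-week library for 40, against 12.9%, 19.9% and 67.2% of the other eligible genes. Both extremes came from the same age in 17 members and from different ages in the others, and the 17 comprised 1 member for day 13, 8 for 5 weeks and 8 for 42 weeks. The matching share of the other eligible genes is not given, so nothing is read from the 17. Replicate 3 of 42 weeks was the highest library for 26 members, against 10.2% of the other eligible genes, and the first 42-week library was the lowest for 26 members, against 44.6% of them. The largest SD within an age was that of ENSGALG00000027950 at 42 weeks, with 26.4, 39.6 and 40.3 FPKM in the 3 libraries.

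For 5 weeks against day 13 the members' median log2 difference was -0.05, with a span of -0.49 to 0.37. The 3 libraries of the 2 ages did not overlap in 29 members, of which 5 were higher at 5 weeks and 24 were lower. Over all 11512 filtered genes 16.4% were higher and 55.2% lower by this criterion. The largest difference upward was that of ENSGALG00000003483, which had 53.2, 54.1 and 50.1 FPKM at 5 weeks, against 43.6, 38.3 and 39.7 FPKM at day 13 (log2 difference 0.37 ± 0.06, SE, n = 3 each). The largest downward was that of ENSGALG00000005441, with 11.8, 12.4 and 12.8 FPKM at 5 weeks, against 18.3, 16.3 and 18.4 FPKM at day 13 (log2 difference -0.49 ± 0.06). The 42-week libraries of both overlapped with those of day 13, at 41.2, 40.6 and 45.0 FPKM for ENSGALG00000003483 and 14.9, 16.02 and 18.2 FPKM for ENSGALG00000005441.

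For 42 weeks against 5 weeks the median difference was -0.01 and the span -0.41 to 0.42. The libraries did not overlap in 16 members, 9 higher and 7 lower at 42 weeks, against 13.5% and 27.9% of all filtered genes. ENSGALG00000016578 differed most upward, with 18.1, 15.8 and 18.6 FPKM at 42 weeks, against 12.3, 12.9 and 13.3 FPKM at 5 weeks (log2 difference 0.42 ± 0.07). ENSGALG00000010576 differed most downward, with 15.05, 15.8 and 17.1 FPKM at 42 weeks, against 18.9, 23.1 and 22.7 FPKM at 5 weeks (log2 difference -0.41 ± 0.10). The day 13 libraries of both overlapped with their 42-week libraries, at 17.2, 12.03 and 16.6 FPKM for ENSGALG00000016578 and 19.4, 15.1 and 17.6 FPKM for ENSGALG00000010576.

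For 42 weeks against day 13 the median difference was -0.06 and the span -0.47 to 0.36. Here 6 members were higher and 18 lower without overlap, against 11.9% and 57.2% of all filtered genes. In 53 members the libraries overlapped in all 3 comparisons, as they did in 13.1% of filtered genes. Taking both steps in turn, 18 members were lower at 5 weeks and overlapped afterwards, a pattern of 32.4% of filtered genes. Another 6 were lower at 5 weeks and higher again at 42 weeks (9.86% of filtered genes), and 2 were higher at 5 weeks and lower again at 42 weeks (6.1%). As the rule used these values, nothing further is read from the difference. The counts without overlap can only stay or rise with 1 library left out, since 2 libraries then face 3. Shares of all filtered genes under the same omission are not given, so no dependence on single libraries is read from the counts. Members higher at 5 weeks than at day 13 numbered 16 when the first day 13 library was left out, 10 when 5-week replicate 1 was, and 13 when 5-week replicate 3 was. Members lower at 42 weeks than at day 13 numbered 31 without the third 42-week library, and those higher numbered 15 without the first day 13 library and 14 without the first 42-week library.

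The place of the members within the library follows from the choice, since their FPKM was held even while the median of the filtered genes was lower at the later ages than at day 13. Ranked among all 13949 genes of a library, the members had a median percentile of 80.2 ± 0.25, 84.3 ± 0.34 and 86.1 ± 1.38 at day 13, 5 weeks and 42 weeks (SD over 3 libraries each). All 100 members had a higher mean percentile at 42 weeks than at day 13, by a median of 5.79 points, as did 47.8% of the other eligible genes. This contrast is given as a description of the chosen genes. The members summed to 2536 ± 119, 2414 ± 79.8 and 2449 ± 115 FPKM at these ages. As a share of all listed FPKM this was 0.467% ± 0.016, 0.458% ± 0.027 and 0.565% ± 0.021, while the other eligible genes held 24.2% ± 0.70, 23.3% ± 0.42 and 19.8% ± 1.91.

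**Figure D3:**
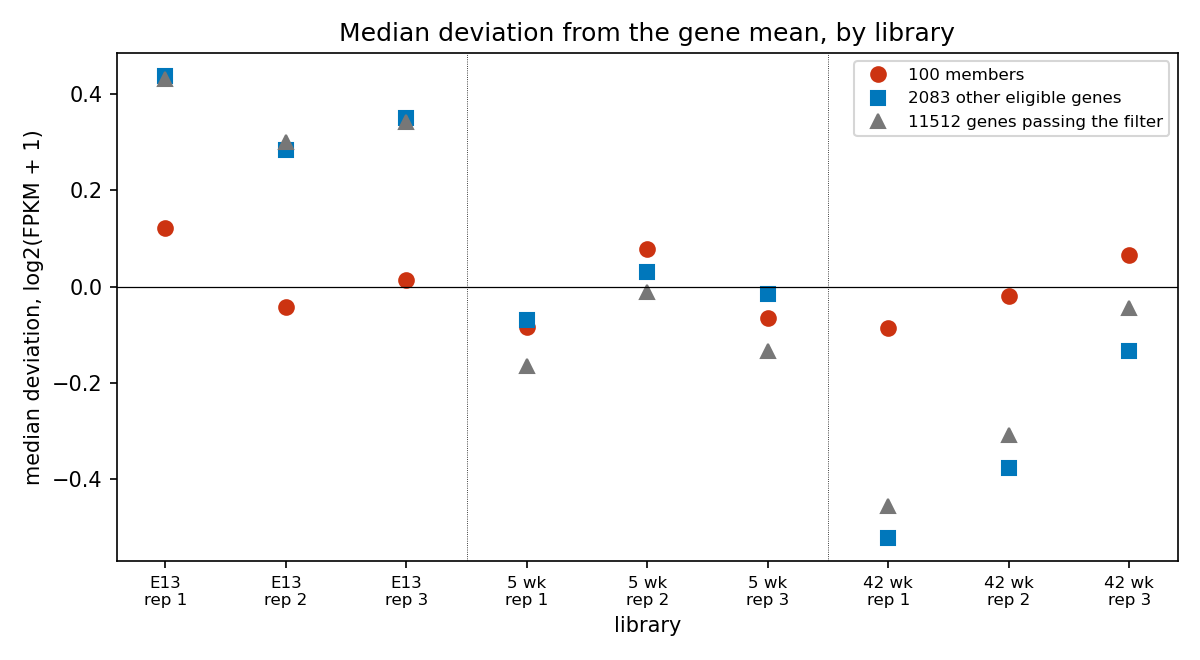
Median deviation from the gene's own mean over 9 libraries (log2 units) for the 100 members (circles), the other 2083 eligible genes (squares) and the 11512 filtered genes (triangles), 1 symbol per library. The members stay between -0.09 and 0.12, while the other eligible genes run between 0.44 in a day 13 library and -0.52 in a 42-week library.

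Which genes were steadiest depended on how libraries were put on a common scale. When each library was shifted to the same median over the filtered genes, 3 of the 100 members were among the 100 eligible genes with the smallest range. After quantile normalization, which gives all libraries the same distribution, the number was 2, and after scaling each library to the same summed FPKM it was 25. The members' median range was 0.84 after median scaling, 0.87 after quantile normalization and 0.64 with equal sums, and the range was larger than as deposited in 95, 95 and 78 members. Over all eligible genes the median range was smaller than as deposited (1.36), at 1.15, 1.12 and 1.21 in the same order. As the members were chosen for a small deposited range, their widening is not read as a general effect of scaling. The 100 genes that were steadiest after median scaling had, as deposited, a median log2 difference of -0.47 for 5 weeks against day 13. For 42 weeks against day 13 it was -0.62. Both lie close to the medians of all filtered genes by construction, since median scaling shifts each library by the median of those genes. Lists made after median scaling and after quantile normalization shared 71 of 100 genes. The list made with equal sums shared 21 genes with the first of these and 27 with the second.

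After median scaling, the median difference of the members was 0.425 for 5 weeks against day 13, 0.12 for 42 weeks against 5 weeks and 0.54 for 42 weeks against day 13. Without overlap, 83 members were then higher at 5 weeks than at day 13 and 0 were lower, against 34.8% and 33% of filtered genes. At 42 weeks against 5 weeks 21 were higher and 2 lower (22.2% and 26.2% of filtered genes), and against day 13 86 and 0 (32.5% and 33.5%). Quantile normalization gave 75 and 0 for the first comparison (32.1% and 36.1%), 36 and 0 for the second (21.7% and 26.3%) and 88 and 0 for the third (29.3% and 36.1%). With equal sums the members numbered 10 and 20 (17.4% and 53.1%), 41 and 0 (23.5% and 18.4%), and 53 and 1 (18.3% and 47.6%) in the same order. Median scaling raises the later libraries against day 13, so members chosen to be even as deposited move upward by construction. The counts under each scaling are a description, and nothing is read from their contrast with the filtered genes. The direction of the members' age differences holds for a stated scaling and not across scalings.

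ENSGALG00000027918 and ENSGALG00000035841 were among the 100 steadiest on the deposited scale and under both median scaling and quantile normalization. With equal sums the 100 steadiest had ranges up to 0.52, which included ENSGALG00000027918 (0.49) and not ENSGALG00000035841 (0.57). ENSGALG00000027918 had 18.2, 17.4 and 16.6 FPKM at day 13, 13.05, 14.4 and 12.3 FPKM at 5 weeks, and 12.2, 12.4 and 12.3 FPKM at 42 weeks. Its day 13 libraries all lay above the others as deposited, with a log2 difference for 42 weeks against day 13 of -0.47 ± 0.04 (SE, n = 3 each), and its range was 0.55 as deposited, 0.44 when medians were aligned and 0.43 after quantile normalization. ENSGALG00000035841 had 20.7, 17.8 and 20.4 FPKM at day 13, 13.5, 16.3 and 13.2 FPKM at 5 weeks, and 13.5, 13.8 and 17.6 FPKM at 42 weeks. The ranges of this gene were 0.61, 0.39 and 0.44 in the same order. The steadiest gene as deposited, ENSGALG00000008211, had a range of 1.01 after median scaling.

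**Figure D4:**
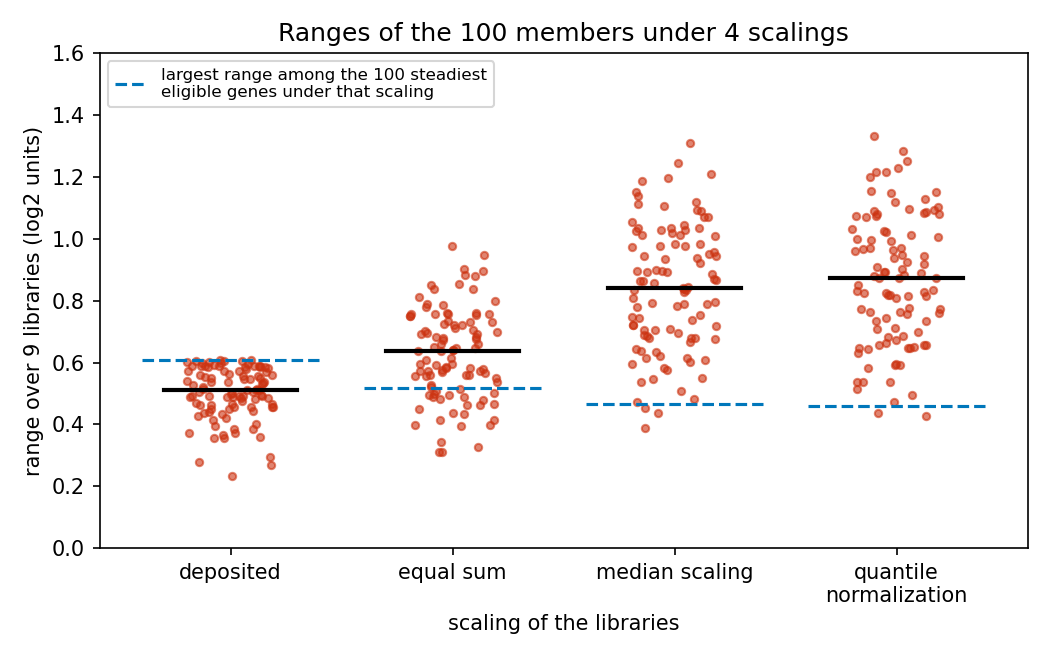
Range over 9 libraries (log2 units) of each of the 100 members as deposited, with equal summed FPKM, and under median scaling and quantile normalization; black bars are medians and dashed lines mark the largest range among the 100 eligible genes that were steadiest under that scaling. The median moves to 0.64, 0.84 and 0.87 from left to right after the deposited 0.51.

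A library left out of the choice gives values that the choice did not use directly. The rule was therefore applied to 8 libraries at a time, and the value in the library left out was set against the mean of the 8. Eligibility was judged on those 8 as well, which gave 2191 to 2366 genes. The other libraries of the same age remained among the 8, so the left-out value was not independent of the choice. The 9 cases also share libraries and are not independent of each other. The median absolute difference of the 100 genes chosen was 0.18, 0.14 and 0.14 log2 units for the 3 day 13 libraries, 0.19, 0.17 and 0.18 for the 5-week libraries, and 0.29, 0.18 and 0.27 for the 42-week libraries. The eligible genes not chosen gave 0.29 to 0.65, larger than the chosen genes in each of the 9 cases. Of the chosen genes, 79 to 100 lay within 0.5 log2 units of the mean of the 8 in the library left out, against 36.0% to 73.5% of the eligible genes not chosen. Inside the range of the 8 lay 40 to 79 of the chosen genes, against 50.5% to 87.4% of those not chosen. That share was lower for the chosen genes in 8 of 9 cases, and the range it refers to was itself narrower for them by the choice. Among the chosen genes both the first and the third 42-week library gave the lowest count inside the range, 40. The lists so chosen shared 61 to 93 genes with the 100 members, fewest without the first 42-week library (61) and next without the third (70).

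Leaving out all 3 libraries of an age asked more of the choice. Eligibility was judged on the 6 libraries kept, which gave 2327, 2333 and 2842 genes without day 13, 5 weeks and 42 weeks. Genes under 10 FPKM only at the left-out age could then enter, which bears on the values of those not chosen. Genes chosen as the 100 steadiest over 5 and 42 weeks had at day 13 a median absolute difference of 0.61 from those 6 libraries, against 0.67 for eligible genes not chosen, and 40 of 100 (40%), against 38.7%, lay within 0.5. Genes chosen over day 13 and 5 weeks differed at 42 weeks by 0.49, against 0.64 for those not chosen, and 51 of 100, against 38.8%, lay within 0.5. Genes chosen over day 13 and 42 weeks differed at 5 weeks by 0.27, against 0.38, with 77 of 100, against 62.1%, within 0.5. The signed medians followed the shift of the whole library, at 0.56 for day 13, -0.01 for 5 weeks and -0.44 for 42 weeks among the chosen genes and 0.43, -0.07 and -0.57 among those not chosen. With an age left out, 23, 48 and 16 of the 100 members were chosen again without day 13, 5 weeks and 42 weeks in that order. As genes are not replicates, these counts were not tested.

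**Figure D5:**
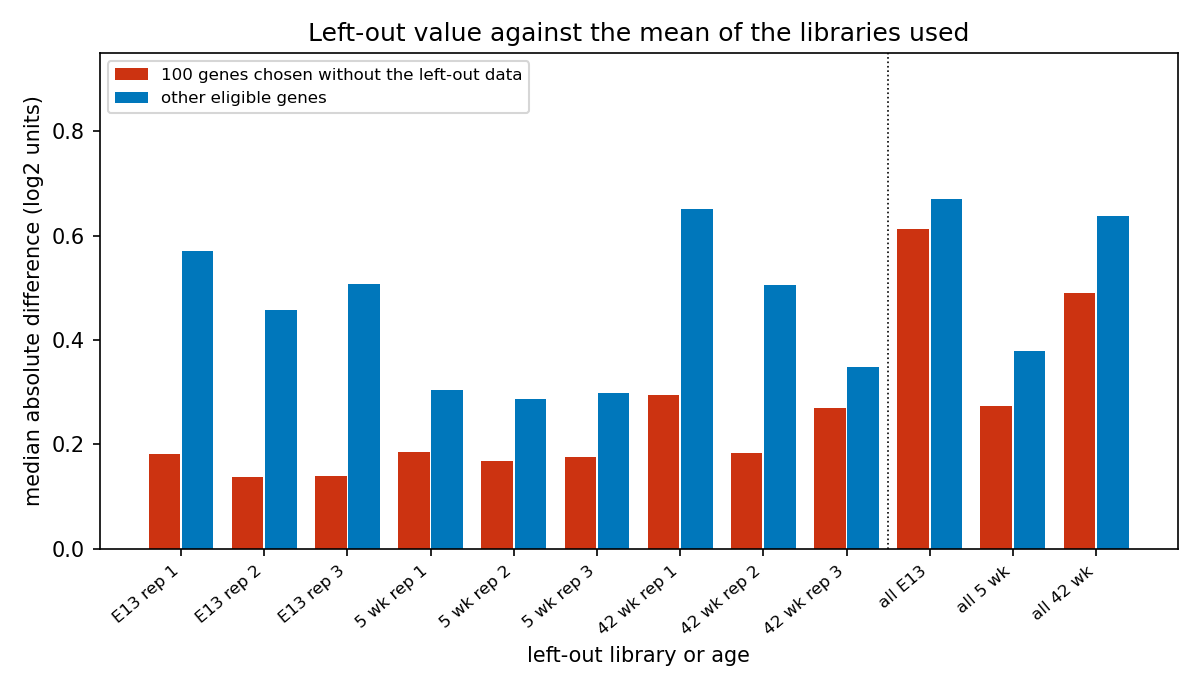
Median absolute difference (log2 units) between the left-out value and the mean of the libraries used, for the 100 genes chosen without that value (left bar of each pair) and the other eligible genes (right bar); the last 3 pairs leave out a whole age, read as its mean. The bars of a pair are far apart for single day 13 libraries (0.14 against 0.46 for the second) and close when all of day 13 is left out (0.61 against 0.67). Eligibility was judged on the libraries used.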

How the data were processed

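Liver RNA of 9 chicken libraries was examined, with 3 for each age. TRIzol was used for extraction and an Illumina TruSeq RNA kit for the libraries, per the labels' protocols. The submitters' processing notes list DESeq2, Cufflinks 2.2.1, StringTie 1.3.3 and HISAT without saying what each did. Genome build, annotation and alignment settings: not given in the sources used here. Log2 values were deposited by the authors, read as log2(FPKM + 1) since the smallest back-transformed value above 0 is 0.100 FPKM. The table of long non-coding RNAs was not used here. All columns of the table belong to the 9 libraries, and 0 were left aside. No 2 libraries held the same values.

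Ranges, age means, SDs and SEs were computed on the deposited log2 scale, and FPKM was obtained by reversing it, with Python 3.11.15 and pandas 2.3.3. No model was fitted and no p-value was computed. The comparison with all genes used the 11512 that reached 1 FPKM in 3 or more libraries, and all 100 members passed this filter. For other scalings the same 2183 eligible genes were ranked again. The selection code was run on simulated data for 13949 genes, in which 100 of 100 planted steady genes were recovered. The planted genes were level across ages with far less noise than the members show. Their recovery therefore checks the code and says nothing about the choice among real genes. The members and the gene lists were chosen with earlier results of these data known. Lists by pathway, cell type markers and sequence features were planned by gene symbol and not analysed here, as 0 identifiers matched. The genes named are the 5 steadiest, the most and the least abundant, the one with the largest SD within an age, the largest differences of each step and the genes at the limit. Those that kept their place under median scaling and quantile normalization were named after their values were seen. Equal sums and leaving out an age were alternatives chosen after seeing the data.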

Additional observations from a re-analysis of the deposited data

How the results depend on the processing

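The choice of members depended on scaling more than on any single library. Of the 100 members, 3 remained under median scaling, 2 under quantile normalization and 25 with equal sums. Ranking by the range of the age means kept 56, a minimum of 5 FPKM 59 and a minimum of 20 FPKM 39. The last count is that of the members at 20 FPKM or more in every library. Without the day 13, 5-week or 42-week libraries 23, 48 and 16 were chosen again, and leaving out 1 library gave 61 to 93. Ranking by SD kept 80, an offset of 0.1 FPKM 96 and no upper limit 93.

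The members' median range was 0.84 under median scaling and 0.87 under quantile normalization. The median difference for 5 weeks against day 13 was 0.425 under median scaling and 0.37 under quantile normalization. For 42 weeks against 5 weeks it was 0.23 under quantile normalization and 0.26 with equal sums, and for 42 weeks against day 13 it was 0.54, 0.58 and 0.24 under median scaling, quantile normalization and equal sums. Median scaling and equal sums apply a single shift or factor to each library, so the members move with them by construction. Quantile normalization sets each value by its rank in the library, so the size of its change differs with the level of the gene.

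Under median scaling, quantile normalization and equal sums, members without overlap numbered 83, 75 and 10 higher at 5 weeks than at day 13. Lower were 0, 0 and 20 in the same order. Shares of all filtered genes under each of these scalings are given above. At 42 weeks against 5 weeks 21, 36 and 41 were higher and 2, 0 and 0 lower, and at 42 weeks against day 13 86, 88 and 53 were higher and 0, 0 and 1 lower. With 1 library left out, 6 to 16 were higher and 26 to 36 lower at 5 weeks than at day 13. At 42 weeks 10 to 20 were higher and 8 to 19 lower than at 5 weeks, and 6 to 15 higher and 20 to 31 lower than at day 13. A comparison of 2 libraries with 3 overlaps less often by construction. Shares of all filtered genes with 1 library left out are not given, so nothing is read from these counts. With 1 library left out the median range of the same members was 0.49 to 0.50. A range can only stay or fall when a library is removed, so nothing is read from this. The median differences with 1 library left out were -0.12 to -0.03, -0.04 to 0.03 and -0.09 to -0.02 in the order of the 3 comparisons above.

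No paired analysis was possible because the results come from no test and the labels do not say that a replicate number marks a shared bird, litter or day. Libraries with the same replicate number at different ages had correlations of deviations from the age mean of -0.05 to 0.14 across genes. Depth is unknown, so the counting error of a single value was not estimated.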

Other observations

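The left-out age was also read after median scaling, a setting chosen after seeing the data. Genes chosen as the 100 steadiest over 5 and 42 weeks on that scale had at day 13 a median absolute difference of 0.41 log2 units, against 0.55 for eligible genes not chosen. Within 0.5 log2 units of the 6 libraries used lay 65 of 100, against 45.7% of those not chosen. With 42 weeks left out the median absolute difference was 0.27, against 0.41, and 81 of 100, against 58.4%, lay within 0.5. With 5 weeks left out the values were 0.30, against 0.39, and 77 of 100, against 60.8%. Eligibility was judged on the deposited values of the 6 libraries used.

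Means of 100 FPKM or more at all 3 ages, with 10 FPKM or more in every library, were found in 265 genes, and 7 of these had a range no larger than that of the last of the 100 members. These abundant genes had a median range of 1.86 log2 units. Among all 11512 filtered genes 386 had a range within the members' limit, most of them with less than 10 FPKM in 1 library or more.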
